A study of Mus musculus with 12 samples.

Results

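The HoxB cluster genes Hoxb1, Hoxb2, Hoxb3, Hoxb4, Hoxb5, Hoxb6, Hoxb7, Hoxb8, Hoxb9 and Hoxb13 were followed through limb development in mice that lacked or carried Lmx1b, a LIM homeodomain gene needed for dorsal fates in the limb. Every probe set that the array annotation assigns to these 10 genes was taken, which gave 12 of the 45037 probe sets tested. Of these, 11 name a single HoxB gene and together cover 9 genes, whereas Hoxb8 is read only by 1452493_s_at, which also names Hoxb7. The series compared C57BL/6 knockout embryos (KO, Lmx1b -/-) with wild-type embryos (WT, Lmx1b +/+) at 11.5, 12.5 and 13.5 days post coitum (dpc). Limb buds were dissected along with the girdle at 11.5 and 12.5 dpc, and at 13.5 dpc the distal limb (forearm or lower leg with hand or foot) was used. The 12 arrays fell into 6 groups of 2, and each array read RNA pooled from the limbs of several embryos, with different embryos in the replicate pools. The series text names both forelimbs and hindlimbs. Each stage formed its own scan series that held both genotypes, so effects of stage and of scan series cannot be told apart. Nor can those of 13.5 dpc and of its different dissection. Genes that mark forelimb or hindlimb also changed from 12.5 to 13.5 dpc. A difference in limb type and one in stage cannot be told apart there either.

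Hox genes encode homeodomain factors that lie in 4 clusters and are switched on along the body axis in the order in which they lie on the chromosome. Their proteins bind DNA with partners of the TALE class (PBX, MEIS and PKNOX), of which MEIS factors also mark the proximal limb. The HoxA and HoxD clusters are best known for patterning the limb itself, while HoxB genes are known for the hindbrain, the trunk and the lateral plate from which limb buds grow. The 10 genes lie on chromosome 11, with Hoxb1 at the 3′ end of the cluster and Hoxb13 at the other end, apart from the rest. In the RefSeq annotation Hoxb4 lies within the span annotated for Hoxb3, and the positions of the probes were not used here.

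The RefSeq promoter table (GRCm38.p6) was matched for 3 of the 10 genes, and the 250 bases upstream of their starts are shown because they come from both kinds of member described below: Hoxb4 is among the genes whose RNA fell between stages, and Hoxb1 and Hoxb8 are read by dim probe sets for which no change passed the test. They are Hoxb4 at chr11:96318017-96318266, Hoxb1 at chr11:96365508-96365757 and Hoxb8 at chr11:96281655-96281904, all on the + strand. Capitals mark matches, on either strand, to a composite core for PBX and HOX proteins (TGATNNAT) or to a core for the HOX regulators of the CDX family (TTTATG).
Hoxb4: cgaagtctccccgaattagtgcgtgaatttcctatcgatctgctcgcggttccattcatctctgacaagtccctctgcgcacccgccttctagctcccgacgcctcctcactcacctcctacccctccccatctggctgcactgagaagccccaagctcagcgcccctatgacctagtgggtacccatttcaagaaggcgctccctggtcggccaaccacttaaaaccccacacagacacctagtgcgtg
Hoxb1: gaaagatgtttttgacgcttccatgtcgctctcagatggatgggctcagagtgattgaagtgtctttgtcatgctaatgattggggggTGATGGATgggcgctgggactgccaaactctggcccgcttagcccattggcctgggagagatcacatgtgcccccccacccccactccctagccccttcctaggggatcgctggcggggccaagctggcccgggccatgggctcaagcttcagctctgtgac
Hoxb8: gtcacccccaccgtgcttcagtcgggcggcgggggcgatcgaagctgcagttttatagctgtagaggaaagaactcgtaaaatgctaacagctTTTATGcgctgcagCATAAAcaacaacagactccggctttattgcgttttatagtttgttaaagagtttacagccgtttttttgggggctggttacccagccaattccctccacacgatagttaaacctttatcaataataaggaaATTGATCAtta
The Hoxb4 stretch held no match to either core. The Hoxb1 stretch held 1 match to the PBX and HOX core, TGATGGAT, whose first base lies 162 bases upstream of the start. In the Hoxb8 stretch, 1 PBX and HOX match (ATTGATCA) lay 11 bases upstream, and 2 CDX matches lay 157 and 143 bases upstream. None of the 3 held the core of LIM homeodomain factors, TAATTA. Among 32817 mouse promoters of the same length, 7.69% held the PBX and HOX core, 10.8% the CDX core and 4.85% the LIM homeodomain core.

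The targeted gene was checked in every array on its brighter probe set, 1441729_at, in log2 expression units. Lmx1b read 5.60 and 5.72 in KO against 9.28 and 9.64 in WT at 11.5 dpc, and 6.50 and 7.02 in KO against 9.29 and 9.55 in WT at 12.5 dpc. At 13.5 dpc it read 7.48 and 8.88 in KO and 10.27 and 10.19 in WT. On this probe set the KO arrays lay below the WT arrays at every stage, with KO replicate 2 of 13.5 dpc closest to WT. The dimmer Lmx1b probe set, 1421769_at, read 5.46 to 5.98 over the 12 arrays. There the genotypes overlapped at 12.5 dpc and at 13.5 dpc (5.48 and 5.88 in KO, 5.76 and 5.64 in WT). The position of the Lmx1b probes relative to the disrupted stretch of the gene was not used here. A KO array of 12.5 dpc (replicate 2) also stood apart, with the heat shock gene Hspa1a at 9.36 against at most 5.71 in the other 11 arrays. Pitx1, which specifies the hindlimb, read 5.76 to 6.28 in the arrays of 11.5 and 12.5 dpc, and 9.88 to 10.30 at 13.5 dpc. From 12.5 to 13.5 dpc the forelimb gene Tbx5 changed by -1.36 in KO and -1.49 in WT. The hindlimb gene Hoxc10 changed by 3.78 in KO and 2.41 in WT. The part of a change in limb type in the HoxB values was not tested. Xist, the RNA of X inactivation made in female cells, read 6.49 and 12.45 in KO and 6.72 and 11.53 in WT at 12.5 dpc on 1436936_s_at, low in replicate 1 of both genotypes, and 11.18 to 12.86 in the arrays of the other stages. In RNA of pooled limb tissue, fewer cells of a type and less RNA per cell cannot be told apart.

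Hoxb2, Hoxb3, Hoxb4, Hoxb5 and Hoxb6 were lower at 12.5 than at 11.5 dpc in both genotypes. Between 11.5 and 12.5 dpc, 7 of the 12 probe sets fell in KO limbs and the same 7 fell in WT limbs, against 8.16% of all probe sets in KO and 8.69% in WT (limma, Benjamini-Hochberg adjusted p below 0.05). These 7 probe sets, of 5 neighbouring genes, are also the ones with a group mean above the median of all values, 6.28. Hoxb5 passed that level only in the groups of 11.5 dpc, and Hoxb6 and Hoxb4 1451761_at only in WT of 11.5 dpc. The match is therefore partly built in, since a high level at 11.5 dpc enters both the fall and the brightness. All 4 arrays of 11.5 dpc lay above all 8 later arrays for 6 of the 12 probe sets (Hoxb2, both of Hoxb3, both of Hoxb4, and Hoxb5), against 6.52% of all probe sets. The 5 probe sets of Hoxb1, Hoxb7, Hoxb8, Hoxb9 and Hoxb13 lay under the median of all values in every group. With all 12 arrays, 0 of them passed the test. No change of a HoxB probe set between KO and WT passed the test at any stage. The levels of one probe set are compared here only with its own levels in other arrays, since probe sets differ in brightness.

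**Figure D1:**
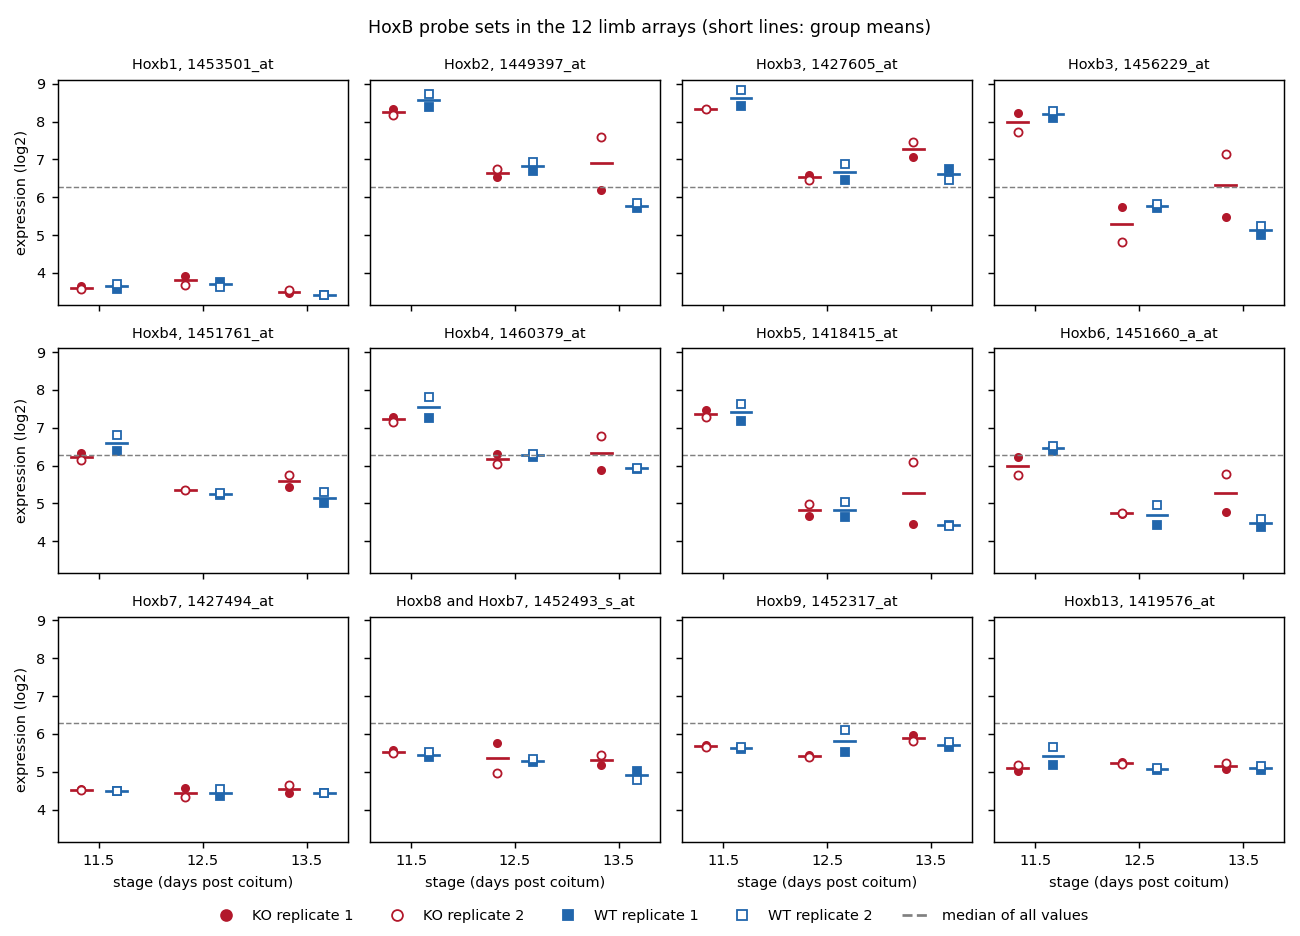
Log2 expression (y axis) of the 12 HoxB probe sets in each of the 12 arrays, by stage in days post coitum (x axis). Red circles are KO and blue squares WT, filled for replicate 1 and open for replicate 2, short lines are group means, and the dashed line is the median of all values, 6.28. The group means of Hoxb2 to Hoxb6 at 11.5 dpc stand above their later ones in both genotypes, and Hoxb1, Hoxb7, Hoxb8, Hoxb9 and Hoxb13 stay under the dashed line throughout.

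Hoxb1 gives identity to a segment of the hindbrain from which facial motor neurons arise. Over the 12 arrays its probe set 1453501_at stayed between 3.42 and 3.92, far under the median of all values. It read 3.66 and 3.57 in KO and 3.58 and 3.71 in WT at 11.5 dpc, and 3.46 and 3.54 in KO and 3.43 and 3.42 in WT at 13.5 dpc. Of the stage differences of Hoxb1, 0 passed the test with all 12 arrays.

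Hoxb2 acts in the hindbrain beside Hoxb1. At 11.5 dpc its probe set 1449397_at read 8.33 and 8.18 in KO and 8.38 and 8.74 in WT. At 12.5 dpc it read 6.54 and 6.76 in KO and 6.70 and 6.94 in WT, and at 13.5 dpc 6.20 and 7.59 in KO and 5.71 and 5.84 in WT. All 4 arrays of 11.5 dpc lay above the 8 later ones, the genotypes overlapped at 12.5 dpc, and KO replicate 2 of 13.5 dpc lay above every array of 12.5 dpc. Between 11.5 and 12.5 dpc Hoxb2 fell by 1.61 ± 0.34 (SE) in KO (limma adjusted p = 0.00982) and fell by 1.74 ± 0.34 in WT (adjusted p = 0.00834). The call was lost without either KO array of 11.5 dpc (highest adjusted p 0.0618) and, in WT, without replicate 2 of 11.5 dpc (adjusted p = 0.0798). From 12.5 to 13.5 dpc the difference was 0.24 ± 0.34 in KO (adjusted p = 0.655) and -1.05 ± 0.34 in WT (adjusted p = 0.0529). The WT difference passed under 11 of 21 alternatives, with adjusted p between 0.00243 and 0.19.

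Hoxb3, which acts in the hindbrain and the pharyngeal arches, is read by a pair of probe sets. At 11.5 dpc 1427605_at read 8.33 and 8.34 in KO and 8.42 and 8.83 in WT. At 12.5 dpc it read 6.60 and 6.47 in KO and 6.47 and 6.87 in WT, and at 13.5 dpc 7.07 and 7.47 in KO and 6.74 and 6.47 in WT. Both KO arrays lay below both WT arrays at 11.5 dpc, the genotypes overlapped at 12.5 dpc, and both KO arrays lay above both WT arrays at 13.5 dpc. This probe set fell by 1.80 ± 0.19 between 11.5 and 12.5 dpc in KO (limma adjusted p = 0.000385) and fell by 1.95 ± 0.19 in WT (adjusted p = 0.00074). Both calls held under all 21 alternatives. From 12.5 to 13.5 dpc it rose by 0.73 ± 0.19 in KO (adjusted p = 0.0237), with a difference of -0.07 ± 0.19 in WT (adjusted p = 0.838). The KO rise was the only HoxB change between those stages that passed, 1 of 12, while 7.89% of all probe sets rose. It was lost under 6 of 21 alternatives (adjusted p up to 0.233), among them the fit without KO replicate 2 of 13.5 dpc (adjusted p = 0.122) and that without KO replicate 2 of 12.5 dpc (adjusted p = 0.082). In WT 0 of 12 passed, against 19.0% of all probe sets, and 2 had an unadjusted p under 0.05, as had 33.9% of all.

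The other Hoxb3 probe set, 1456229_at, read 8.24 and 7.73 in KO and 8.10 and 8.29 in WT at 11.5 dpc. At 12.5 dpc it read 5.74 and 4.83 in KO and 5.71 and 5.83 in WT, and at 13.5 dpc 5.49 and 7.15 in KO and 5.01 and 5.24 in WT. The KO arrays were spread widely at the later stages, with replicate 2 lowest at 12.5 dpc and highest at 13.5 dpc. The fall between 11.5 and 12.5 dpc was 6.49-fold in KO (log2 difference -2.70 ± 0.44, limma adjusted p = 0.00308) and 5.38-fold in WT (log2 difference -2.43 ± 0.44, adjusted p = 0.0067). Of the 45037 probe sets, 1 had a lower log2 difference in KO. The WT fall missed the threshold without WT replicate 2 of 11.5 dpc (adjusted p = 0.0611). Both Hoxb3 probe sets fell in both genotypes over all arrays, while at 13.5 dpc the second one gave 1.04 ± 0.44 in KO against 12.5 dpc and missed the threshold (adjusted p = 0.13).

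Hoxb4, known for expanding blood stem cells when supplied in excess, is also read by a pair of probe sets. At 11.5 dpc 1451761_at read 6.33 and 6.15 in KO and 6.38 and 6.80 in WT. It read 5.36 and 5.36 in KO and 5.23 and 5.28 in WT at 12.5 dpc, and 5.43 and 5.76 in KO and 5.01 and 5.30 in WT at 13.5 dpc. KO lay below WT at 11.5 dpc and above WT at 12.5 and 13.5 dpc, without overlap at any of these stages. Between 11.5 and 12.5 dpc the log2 difference was -0.88 ± 0.16 in KO (limma adjusted p = 0.00563) and -1.34 ± 0.16 in WT (adjusted p = 0.00159). KO minus WT differed between these stages by 0.46 ± 0.23, which missed the threshold (adjusted p = 0.752). On 1460379_at Hoxb4 read 7.29 and 7.15 in KO and 7.27 and 7.82 in WT at 11.5 dpc. It read 6.30 and 6.05 in KO and 6.24 and 6.30 in WT at 12.5 dpc, and 5.89 and 6.79 in KO and 5.91 and 5.94 in WT at 13.5 dpc. The genotypes overlapped at each stage on this probe set, and all 4 arrays of 11.5 dpc lay above the later 8. It fell by 1.05 ± 0.25 in KO (adjusted p = 0.0189) and fell by 1.28 ± 0.25 in WT (adjusted p = 0.00969). Without WT replicate 2 of 11.5 dpc the WT fall on 1460379_at missed the threshold (adjusted p = 0.0935), as did the KO fall without either KO array of 11.5 dpc or KO replicate 2 of 12.5 dpc (adjusted p up to 0.101).

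Hoxb5, whose loss in mice shifts the shoulder girdle forward, is read by 1418415_at. At 11.5 dpc it read 7.47 and 7.28 in KO and 7.18 and 7.64 in WT. At 12.5 dpc it read 4.67 and 4.99 in KO and 4.65 and 5.03 in WT, and at 13.5 dpc 4.47 and 6.09 in KO and 4.43 and 4.41 in WT. The genotypes overlapped at 11.5 and 12.5 dpc, and at 13.5 dpc KO replicate 1 lay next to the WT arrays while KO replicate 2 lay above all arrays of 12.5 dpc. Between 11.5 and 12.5 dpc Hoxb5 fell 5.84-fold in KO (log2 difference -2.54 ± 0.40, limma adjusted p = 0.00241) and 5.94-fold in WT (log2 difference -2.57 ± 0.40, adjusted p = 0.00354). Only 4 of the 45037 probe sets had a lower log2 difference in KO and only 1 in WT. The calls held under all 20 alternatives in each genotype.

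Hoxb6 is expressed in lateral plate mesoderm, and its regulatory DNA is used to drive Cre there and in hindlimb mesenchyme. At 11.5 dpc 1451660_a_at read 6.24 and 5.76 in KO and 6.38 and 6.53 in WT. At 12.5 dpc it read 4.73 and 4.75 in KO and 4.44 and 4.95 in WT, and at 13.5 dpc 4.77 and 5.77 in KO and 4.39 and 4.58 in WT. KO replicate 2 of 13.5 dpc reached the lower KO array of 11.5 dpc, so the stages overlapped on this probe set. It fell by 1.26 ± 0.29 between 11.5 and 12.5 dpc in KO (limma adjusted p = 0.0141) and fell by 1.76 ± 0.29 in WT (adjusted p = 0.00427). The KO fall missed the threshold without KO replicate 1 of 11.5 dpc (adjusted p = 0.104).

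For the 4 genes toward the 5′ end, no stage difference passed the test with all 12 arrays, while some passed in fits with arrays left out. Hoxb7, whose promoter is widely used to mark the collecting duct system of the kidney, read between 4.33 and 4.66 on 1427494_at in all 12 arrays. The probe set shared by Hoxb8 and Hoxb7, 1452493_s_at, read 5.58 and 5.49 in KO and 5.38 and 5.51 in WT at 11.5 dpc, and 5.18 and 5.45 in KO and 5.02 and 4.79 in WT at 13.5 dpc. Hoxb8 is known in the limb because its expression at the front of the mouse forelimb bud gives a mirror-image limb, and its own level cannot be separated from that of Hoxb7 here. Hoxb9, which patterns the ribs with its paralogs, read 5.43 and 5.40 in KO and 5.53 and 6.10 in WT at 12.5 dpc on 1452317_at. Hoxb13, which acts in the tail and the prostate, read between 5.02 and 5.66 on 1419576_at over the 12 arrays. The lowest adjusted p of these 4 probe sets between stages was 0.0591, for Hoxb9 from 12.5 to 13.5 dpc in KO (0.48 ± 0.16).

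**Figure D2:**
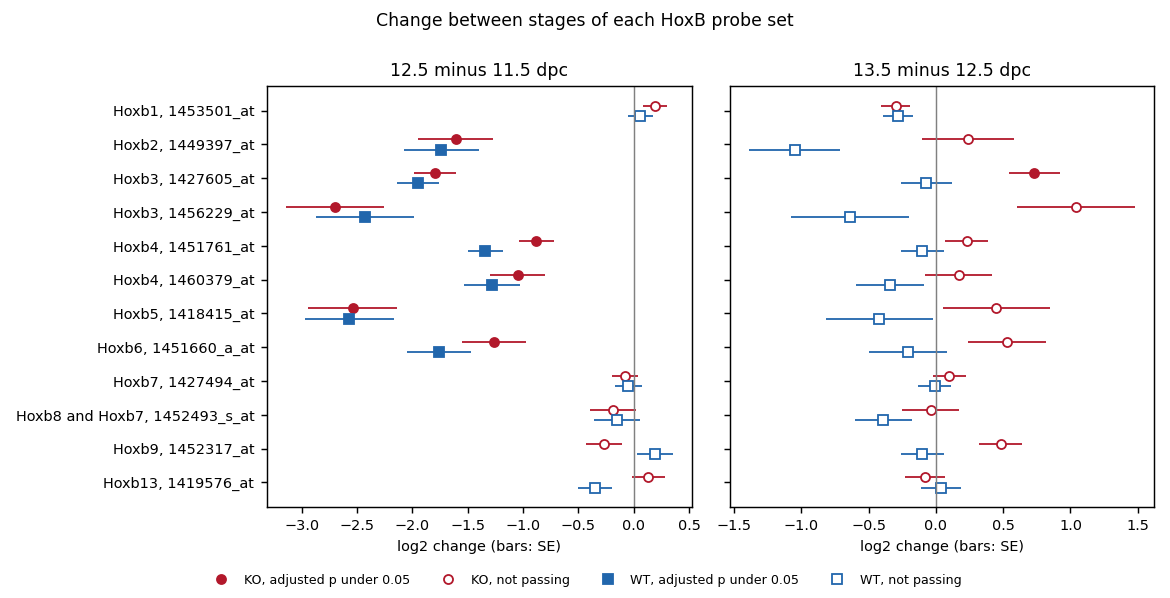
Log2 change of each HoxB probe set (rows) between consecutive stages, 12.5 minus 11.5 dpc at left and 13.5 minus 12.5 dpc at right, with bars of 1 SE from the limma fit. Red circles are KO and blue squares WT, and filled symbols have an adjusted p under 0.05. The 7 probe sets of Hoxb2 to Hoxb6 lie between -2.70 and -0.88 at left in both genotypes, and at right only Hoxb3 1427605_at in KO is filled.

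The order of the groups was alike for the 7 brighter probe sets. The same 7 fell between 11.5 and 12.5 dpc, and some of them pass the median only at 11.5 dpc. The high place of 11.5 dpc is thus partly given by the choice. Both groups of 11.5 dpc had the highest means, with KO below WT, followed by KO of 13.5 dpc. With KO replicate 1 alone at 13.5 dpc, its level kept rank 3 among the groups on Hoxb3 1427605_at, Hoxb4 1451761_at and Hoxb6, and was lower on Hoxb3 1456229_at (rank 4), Hoxb2 and Hoxb5 (rank 5) and Hoxb4 1460379_at (rank 6). Neighbouring groups below these often overlapped: KO of 13.5 dpc and WT of 12.5 dpc overlapped on Hoxb2, Hoxb5, Hoxb3 1456229_at and Hoxb4 1460379_at. WT of 13.5 dpc came last on all of them except Hoxb3 1427605_at, where KO of 12.5 dpc did. Hoxb2 averaged 5.77 ± 0.09 (SD, n = 2) in WT of 13.5 dpc, Hoxb5 4.42 ± 0.02 and Hoxb6 4.48 ± 0.14 log2 units. On the 21 pairs of these 7 probe sets, Pearson r over the 12 arrays was 0.915 to 0.971 with a median of 0.962. With the mean of each stage removed it was 0.676 to 0.953 (median 0.834), and when KO replicate 2 of 13.5 dpc was also left out it was -0.016 to 0.797 (median 0.574). The arrays share their stages, the probe sets share the arrays, and all 7 probe sets fell after 11.5 dpc, so these values are a description.

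No HoxB probe set differed between KO and WT beyond the threshold. As the mean over the 3 stages, KO minus WT lay between -0.05 for Hoxb9 and 0.27 for Hoxb5, and 0 of 12 passed in limma, against 0.0711% of all probe sets, with 0 at an unadjusted p under 0.05 (7.32% of all). The 95% limits of these means reached from -0.40 to 0.73 on Hoxb3 1456229_at, the widest, and from -0.14 to 0.27 on Hoxb4 1451761_at, so a missed threshold does not show equal levels. At 11.5 dpc the differences ran from -0.46 (Hoxb6) to 0.09, with 0 of 12 called against 0.00888% of all and 0 at an unadjusted p under 0.05 (1.53% of all). At 12.5 dpc they ran from -0.49 to 0.16, with 0 called against 0.335% of all and 1 (Hoxb9, -0.40 ± 0.16) at an unadjusted p under 0.05 (12.8% of all). Without WT replicate 1 of 12.5 dpc the Hoxb9 difference was -0.68. WT was then read on replicate 2 alone, whose 6.10 is the highest Hoxb9 value of the 12 arrays. At 13.5 dpc all 12 differences were above 0, from 0.05 to 1.19 with a median of 0.42, against a median of 0.00 over all probe sets. None of them passed the adjusted threshold (0.0178% of all did), while 5 had an unadjusted p under 0.05, against 4.57% of all. Without KO replicate 2 the differences of Hoxb4 1460379_at and Hoxb13 were below 0.

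**Figure D3:**
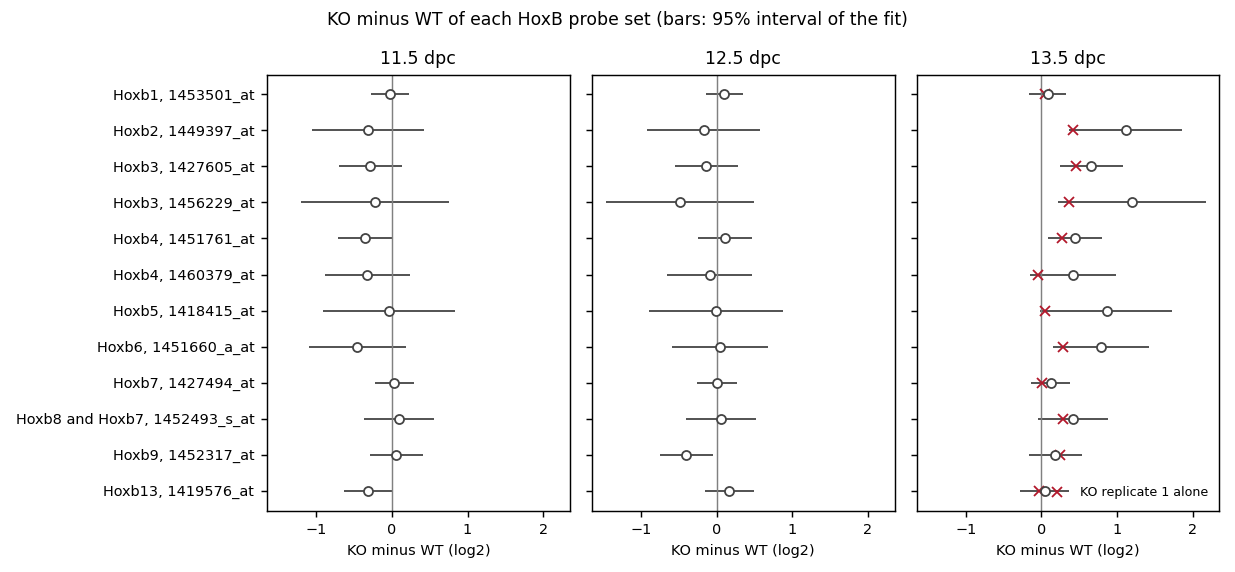
KO minus WT in log2 units (x axis) for each HoxB probe set (rows) at 11.5, 12.5 and 13.5 dpc, with 95% intervals of the limma fit. Red crosses at 13.5 dpc give KO replicate 1 minus the WT mean, without KO replicate 2. At 13.5 dpc all 12 circles lie above 0, and the crosses of Hoxb2, Hoxb5 and Hoxb6 lie at 0.42, 0.04 and 0.28.

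The arrays themselves were compared next. At 11.5 dpc both KO arrays lay below both WT arrays for 5 of 12 probe sets (19.9% of all) and above them for 2 (16.0% of all). At 12.5 dpc the counts were 1 below (18.7%) and 2 above (16.9%). At 13.5 dpc both KO arrays lay above both WT arrays for 10 of 12, against 14.0% of all probe sets, and below for 0, against 18.1%. The 10 included the dim probe sets of Hoxb1, Hoxb7, Hoxb8 and Hoxb9. There Hoxb1 read 3.46 and 3.54 in KO against 3.43 and 3.42 in WT, and Hoxb7 4.45 and 4.66 against 4.43 and 4.44. KO minus WT was also compared between stages: 0 of 12 such differences passed for any pair of stages, as for all 45037 probe sets (0.0%), and 1, 4 and 5 of 12 had an unadjusted p under 0.05 for 12.5 minus 11.5, 13.5 minus 12.5 and 13.5 minus 11.5 dpc. Over all probe sets the shares at that unadjusted p were 6.97%, 9.35% and 1.64%, in the same order.

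KO replicate 2 of 13.5 dpc stood apart on the HoxB probe sets. That array was above the other 3 arrays of its stage for 11 of 12 HoxB probe sets, against 30.8% of all probe sets. It exceeded the highest of the other 3 by 1 log2 unit or more for 4 of 12, against 0.182% of all: by 1.39 for Hoxb2, 1.65 for Hoxb3 1456229_at, 1.62 for Hoxb5 and 1.00 for Hoxb6. KO replicate 1 alone differed from the WT mean by 0.42 for Hoxb2, 0.46 and 0.37 for the Hoxb3 probe sets, 0.27 and -0.04 for those of Hoxb4, 0.04 for Hoxb5 and 0.28 for Hoxb6. Without KO replicate 1 instead, KO minus WT at 13.5 dpc was 1.81 for Hoxb2 and 1.67 for Hoxb5. Those values rest on KO replicate 2 alone, the array that stood apart.

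Other genes moved in the same array. Meis1, a TALE factor of the proximal limb, read 7.76 and 9.46 in KO replicates 1 and 2 and 7.12 and 7.01 in WT. The embryonic globin Hbb-bh1 read 10.48 and 12.91 in KO and 9.05 and 8.40 in WT. KO replicate 2 was the highest of the 4 arrays for 8 of 10 proximal limb and girdle markers, whose mean level was 9.03 there, 8.17 in KO replicate 1 and 8.13 to 8.21 in WT. It was highest for 7 of 8 muscle markers and 5 of 9 erythroid markers, and lowest for 6 of 6 cartilage markers and 6 of 9 distal limb markers. The hindlimb markers averaged 9.37 in KO replicate 2, 8.74 in KO replicate 1 and 8.20 to 8.23 in WT. KO replicate 2 was highest for 3 of 4 of them and for the forelimb gene Tbx5. Over all genes it was highest for 33.8% and lowest for 30.2%. The array was also lowest for 1 of 10 proximal and 2 of 9 erythroid markers, and highest for 2 of 9 distal limb markers. KO minus WT of the erythroid markers had a median of 0.07 at 13.5 dpc, from -0.27 to 2.97. The part of these differences in the HoxB values of that array was not tested.

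**Figure D4:**
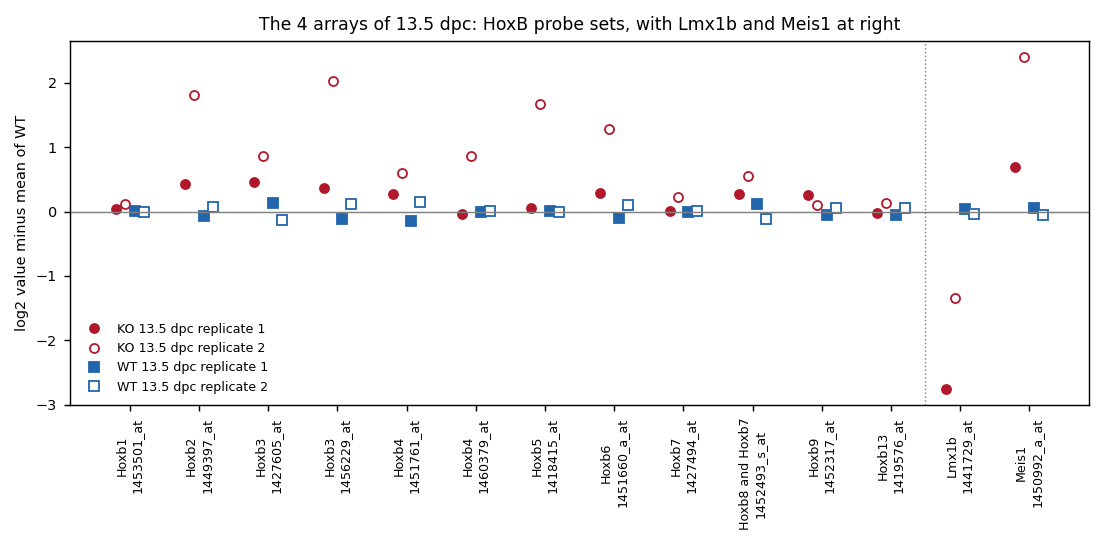
Log2 value minus the mean of the WT arrays (y axis) in the 4 arrays of 13.5 dpc, for each HoxB probe set and, right of the dotted line, Lmx1b and Meis1. Open red circles, KO replicate 2, are the highest symbols for 11 of 12 HoxB probe sets and for Meis1, and lie between KO replicate 1 and WT for Lmx1b.

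The 11.5 dpc arrays also differed in single pools: WT replicate 2 was the highest of the 4 for 9 of 12 HoxB probe sets, against 28.8% of all. KO replicate 2 of 12.5 dpc was the lowest of its 4 for 6 of 12, against 29.6% of all. With this array and KO replicate 2 of 13.5 dpc left out, KO of 12.5 dpc was read on 1 array. The differences between 11.5 and 12.5 dpc of the 7 probe sets of Hoxb2 to Hoxb6 then stayed below 0 in KO and in WT.

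Markers of other cells and positions were set beside the fall after 11.5 dpc. Of 11 markers of spinal cord and neurons, tissue in which HoxB genes are strongly expressed, 0 passed for a change between 11.5 and 12.5 dpc in either genotype. The changes of these markers had a median of -0.14 in KO, from -0.77 to 0.49, and of -0.06 in WT, from -0.99 to 0.18. Their mean level was 5.81 to 5.89 in KO and 5.84 to 6.06 in WT at 11.5 dpc, and 5.69 to 5.78 in KO and 5.73 to 5.92 in WT at 12.5 dpc, and 5 of the 11 lay under the median of all values in every array. Of 10 proximal limb and girdle markers, 5 fell and 1 rose in KO and 4 fell in WT, with median changes of -1.07 and -0.59. Their mean level was 8.86 to 8.92 in KO and 9.20 to 9.43 in WT at 11.5 dpc. At 12.5 dpc it was 7.85 to 8.12 in KO and 8.12 to 8.46 in WT. Single markers weigh on these means. KO minus WT of these markers had a median of -0.11 at 11.5 dpc, from -1.81 to 0.31. At 12.5 dpc the median was -0.08, from -2.29 to 1.26. Of 6 cartilage markers, 2 rose in KO and 4 in WT, with median changes of 1.00 and 1.20 and mean levels of 7.91 to 8.20 in KO and 8.45 to 8.86 in WT at 11.5 dpc, and 8.41 to 9.61 in KO and 9.82 to 9.95 in WT at 12.5 dpc. Of 9 distal limb markers, 3 rose in KO and 0 in WT (medians 0.48 and 0.39), and of 7 surface ectoderm markers 1 fell in KO and 3 in WT (medians -0.45 and -0.56). The part of these marker differences in the HoxB values was not tested. Over all genes, read on their brightest probe set, 1758 of 18193 (9.66%) fell in KO and 2073 (11.4%) in WT, and 5.69% rose in KO and 5.45% in WT.

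Of the TALE cofactors, 8 of 9 were measured and 2 fell between 11.5 and 12.5 dpc in each genotype. Meis1 read 9.99 and 9.74 in KO and 9.62 and 9.92 in WT at 11.5 dpc, against 8.32 and 7.96 in KO and 7.71 and 7.91 in WT at 12.5 dpc. Its log2 change was -1.73 in KO (limma adjusted p = 0.0155) and -1.96 ± 0.40 in WT (adjusted p = 0.0108). Meis2 changed by -1.62 in KO (adjusted p = 0.0136) and -1.78 ± 0.37 in WT (adjusted p = 0.011). The other 6, Pbx2, Pbx3, Pbx4, Meis3, Pknox1 and Pknox2, did not pass. Of 20 measured regulators of Hox transcription, 3 rose and 3 fell in KO and 3 fell in WT. The 3 that fell in WT were the Polycomb genes Cbx2 (-0.69), Phc1 (-0.48) and Phc2 (-0.57). Of 16 retinoid genes, 1 rose and 3 fell in KO, and 1 rose and 2 fell in WT, where Aldh1a2, which makes retinoic acid, rose by 1.66 ± 0.37 (adjusted p = 0.0156). No member of these 3 lists passed for KO minus WT over the 3 stages.

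Genes next to the cluster were read too. The antisense gene Hoxb5os, on 1447886_at, read 7.98 and 7.78 in KO and 7.77 and 8.40 in WT at 11.5 dpc, and 6.40 and 6.45 in KO and 6.90 and 6.95 in WT at 12.5 dpc. It fell by 1.46 ± 0.19 in KO (limma adjusted p = 0.00112) and fell by 1.16 ± 0.19 in WT (adjusted p = 0.00442), as Hoxb5 did. Of the flanking genes, Snx11 changed by -0.38 in KO and -0.41 in WT (adjusted p = 0.0374 and 0.0291), and Skap1, Ttll6, Calcoco2 and Cbx1 did not pass in either genotype.

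The other Hox clusters were read on the brightest probe set of each gene. Between 11.5 and 12.5 dpc, 5 of 9 measured HoxB genes fell in KO and 5 in WT, compared with 3 and 3 of 9 HoxA genes, 3 and 3 of 7 HoxC genes, and 0 and 1 of 8 HoxD genes. Median changes were -1.05 in KO and -1.28 in WT for HoxB, -0.25 and -0.38 for HoxA, -1.61 and -1.31 for HoxC, and -0.04 and -0.25 for HoxD. The falls outside HoxB included Hoxa2 (-1.10 in KO and -1.70 in WT), Hoxa4 (-1.52 and -1.93), Hoxc6 (-1.61 and -1.31) and Hoxc8 (-1.82 and -2.35). Differences between clusters were not tested. For KO minus WT over the 3 stages, 0 genes of each cluster passed. In KO replicate 2 of 13.5 dpc the median gap to the mean of the other 3 arrays was 0.71 for HoxB, 0.49 for HoxA, 1.89 for HoxC and 0.02 for HoxD.

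**Figure D5:**
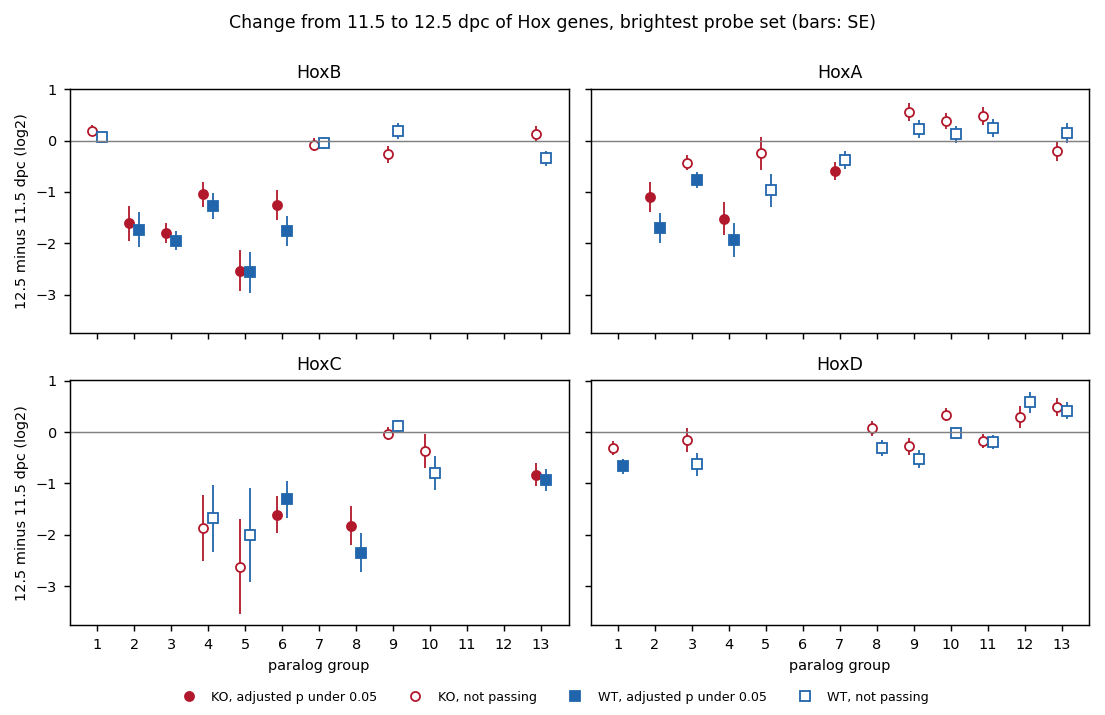
Change from 11.5 to 12.5 dpc in log2 units (y axis) of the Hox genes by paralog group (x axis), in 1 panel per cluster, with bars of 1 SE. Red circles are KO and blue squares WT, filled where the adjusted p is under 0.05. HoxB genes of groups 2 to 6 are filled in both genotypes, from -1.05 to -2.57, and HoxD genes of groups 8 to 13 are open.

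By Pearson r over the 12 arrays, among 18184 genes outside the cluster on their brightest probe sets, the genes most like each HoxB gene were as follows. For Hoxb2 they were Phf5a (0.992), Apoo (0.989) and Cited4 (0.985). For Hoxb3 they were Thop1 (0.978), Usp29 (0.977) and Wdr92 (0.977). Gtf2h4 (0.985), Skap2 (0.974) and Ntmt1 (0.973) were most like Hoxb4. Zfp280b (0.989), Pigf (0.986) and Skap2 (0.986) were most like Hoxb5, and Rspo2 (0.97), Skap2 (0.97) and Kcnh2 (0.969) were most like Hoxb6. Skap2, which lies next to the HoxA cluster, stood in 3 of these 5 lists. Several of these genes moved little, such as Phf5a between 11.65 and 12.13, since r does not use the size of a change. The 12 arrays share 3 stages, so r describes these arrays and no more. Lmx1b had r between -0.30 and -0.191 with these 5 genes.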

How the data were processed

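The authors deposited log2 expression values from Affymetrix mouse genome arrays, which the submitters' processing notes credit to RMA. RMA corrects background, normalizes arrays and summarises the probes of a probe set. Its version and the genome build are not given in the sources used here. The sorted columns differed by at most 0.242. Scanner files were not used here. Of 45101 probe sets, 64 controls were left out. Names came from the platform's annotation: 34945 named 1 gene, 932 several and 9160 none, and 34741 matched the RefSeq table of GRCm38.p6. That table gave names and gene order only. The labels disagree on pool size, with 6, 3 and 6 limbs at 11.5, 12.5 and 13.5 dpc in the series text and 6 each in the extract protocol.

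A model with 1 mean for each of the 6 groups was fitted over the 12 arrays together (lmFit and eBayes of limma 3.58.1, R 4.3.3, with 6 residual and 4.46 prior degrees of freedom), two-sided. Benjamini-Hochberg adjustment ran over 45037 probe sets with a threshold of 0.05, and SE and 95% limits come from this fit. With 2 pools a group, p-values measure the spread between pools. The fit was tested on simulated data. Tables were made with pandas 2.3.3. Motifs were searched on both strands.

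Members and gene lists were chosen with earlier results of these data known. Named genes were all members, Lmx1b, up to 4 genes per list by smallest p, and for each member above the median the 3 genes with the highest r. Xist, Hspa1a, Pitx1, Hbb-bh1 and the Hox genes of other clusters were named after their values were seen. The alternatives were other choices of probe set, variance prior, normalization, array weights, dim filter, arrays fitted, replicate block and arrays left out.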

Additional observations from a re-analysis of the deposited data

How the results depend on the processing

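None of the 15 HoxB differences that passed changed sign under an alternative, and none passed with the other sign. Of all 132 differences, 48 that did not pass changed sign under at least 1 alternative, 9 of them without KO replicate 2 of 13.5 dpc. Without that array KO 13.5 minus 12.5 dpc was among them for Hoxb2, Hoxb4 1460379_at and Hoxb5. Across alternatives other than leaving out 1 array, the count for 12.5 minus 11.5 dpc was 5 of 9 genes with 1 value per gene (brightest or averaged) in KO and WT, and without dim probe sets all 4 members left were called in KO (4) and WT (4). Leaving out the KO arrays that stood apart (KO replicate 2 of 12.5 and 13.5 dpc) left 1 KO array at each of these stages. From 12.5 to 13.5 dpc in KO, Hoxb3 1427605_at then changed by 0.46 and Hoxb1 by -0.46. The probe set of Hoxb8 and Hoxb7 changed by -0.57. For 13.5 minus 12.5 dpc in KO the count was 0 with probe sets averaged by gene, with array quality weights and with only the arrays compared. In WT it was 1 with the brightest probe set, the mean of probe sets, array weights, the dim filter and the replicate block, 2 with only the arrays compared and 3 without those KO arrays. Leaving out each array moved no HoxB count for KO minus WT over the stages, at 11.5 dpc or for its differences between stages. The HoxB counts of the other comparisons moved. So did the counts over all probe sets, so these moves are not particular to HoxB. For 12.5 minus 11.5 dpc the HoxB count was lowest without KO replicate 1 of 11.5 dpc in KO and without WT replicate 2 of 11.5 dpc in WT. For 13.5 minus 12.5 dpc in KO it was highest without KO replicate 1 of 13.5 dpc. A group left with 1 array is assumed to vary like the others.

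Replicate numbers were not taken to pair the pools: deviations of same-numbered KO and WT arrays correlated at 0.3, -0.144 and -0.0552 at 11.5, 12.5 and 13.5 dpc. At 12.5 dpc Xist was low in both replicate 1 arrays, so the number and that signal cannot be told apart there; with the block, 0 HoxB probe sets were called for KO minus WT at 12.5 dpc, as without it. With the replicate block the WT count for 13.5 minus 12.5 dpc was 1, against 0 without it, and the other counts stayed within 1.5 times. The cause of these moves was not tested. Over all probe sets, the count for KO minus WT over the stages was 32, and 4 with the block within stage; leaving out an array gave 8 to 556. Signal near background limits the dim probe sets.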
